A study of Rattus norvegicus with 4 samples.

Results

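The response of cultured rat microvessels to A83-01 on a stiff extracellular matrix was read from 1 RNA-seq library of microvessels on stiff matrix with A83-01, set against 1 library on stiff matrix without it. Every gene that reached 1 CPM (counts scaled to a common library size) in either library was included, which gave 13220 of the 23608 genes in the deposited table, 11453 of them with a gene symbol. The rule holds a threshold: 99 of the included genes peaked between 1 and 1.1 CPM, and 122 genes peaked between 0.9 and 1 CPM and were left out. The cells were primary, wild-type vascular cells of Rattus norvegicus, taken from subcutaneous soft connective tissue. A second pair of libraries, soft matrix with A83-01 and soft matrix without it, is given beside the stiff pair. The labels name neither the stiffness of the matrices, nor the dose or duration of A83-01, nor the age or number of animals. Both stiff libraries carry names of one form and both soft libraries names of another, so matrix and a possible difference in preparation cannot be told apart. All 4 groups share the labelled tissue, cell type and genotype, no strain is named, and they differ by label in matrix and inhibitor alone.

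TGF-beta ligands bind a type II receptor kinase, which activates a type I receptor kinase, which phosphorylates SMAD proteins that enter the nucleus and act on target genes. A83-01 is a small molecule that blocks the type I kinases ALK5, ALK4 and ALK7, which serve TGF-beta, activin and nodal ligands, while the BMP type I kinases are much less sensitive to it. In small vessels, TGF-beta is known for stabilising endothelium through pericytes and for driving pericytes and fibroblasts to become myofibroblasts, the contractile cells that build scar matrix.

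The libraries held 33416200 counts in stiff with A83-01 and 33178552 in stiff, and between 32271844 and 32475473 in the soft pair. The 10 most abundant genes took 11.6% of the counts in stiff with A83-01 and 21.8% in stiff, and Col1a1 alone took 2.04% and 6.09% in the same libraries. Levels are therefore given as CPM scaled by the trimmed mean of M-values (TMM), which sets most genes level with each other. Scaling by total counts alone would add 0.28 to every log2 ratio of the stiff pair, so any ratio between -0.28 and 0 would turn positive. A fold is the ratio of CPM, and the range in parentheses is its 95% counting interval. With 1 library on each side there is no replicate check: a fold compares those libraries, and its interval covers counting error only. Defining markers of the labelled vascular cells were present in both stiff libraries. VE-cadherin, Cdh5, stood at 1325 CPM in stiff with A83-01 and 729.6 CPM in stiff, and the mural PDGF receptor, Pdgfrb, at 1469.5 CPM in stiff with A83-01 and 1591 CPM in stiff. Of 8 keratinocyte genes, Krt5, Krt14, Epcam, Cdh1 and Tp63 had 0 counts in both stiff libraries, while 2 others reached 1 CPM. Of 14 macrophage and leukocyte genes, 2, among them the T cell gene Cd3e, had 0 counts in both, while 9 reached 1 CPM. Fibroblast markers were present as well, summing to 14354 CPM in stiff with A83-01 and 12528 CPM in stiff.

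In the stiff pair, A83-01 went with a level at least 2-fold higher for 996 genes (7.53%) and at least 2-fold lower for 592 genes (4.48%), with a counting interval that excluded a ratio of 1. The list counts below are to be read beside these shares of all genes. At 4-fold, 244 genes (1.85%) were higher and 165 (1.25%) lower. Higher genes made up 62.7% of the calls, and 81.1% when scaled by total counts. The median log2 ratio of all genes was 0.02, with quartiles of -0.25 and 0.33. By mean level of both libraries, under 5 CPM, 17.5% of 2667 genes were higher and 9.22% lower, whereas over 50 CPM, 3.52% of 3525 genes were higher and 3.83% lower. A gene of low mean could enter through the library where it was high, so the inclusion rule itself favours large ratios in the lowest bin. A gene below 1 CPM in one stiff library entered through the other alone, so the rule fixed its direction. This holds for every gene named below at such a level, also within list counts. Several of the most strongly expressed genes of the stiff library, the fibrillar collagens among them, were lower with A83-01. The plot of log2 ratio by level shows both wings, and the collagens at its right edge.

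**Figure D1:**
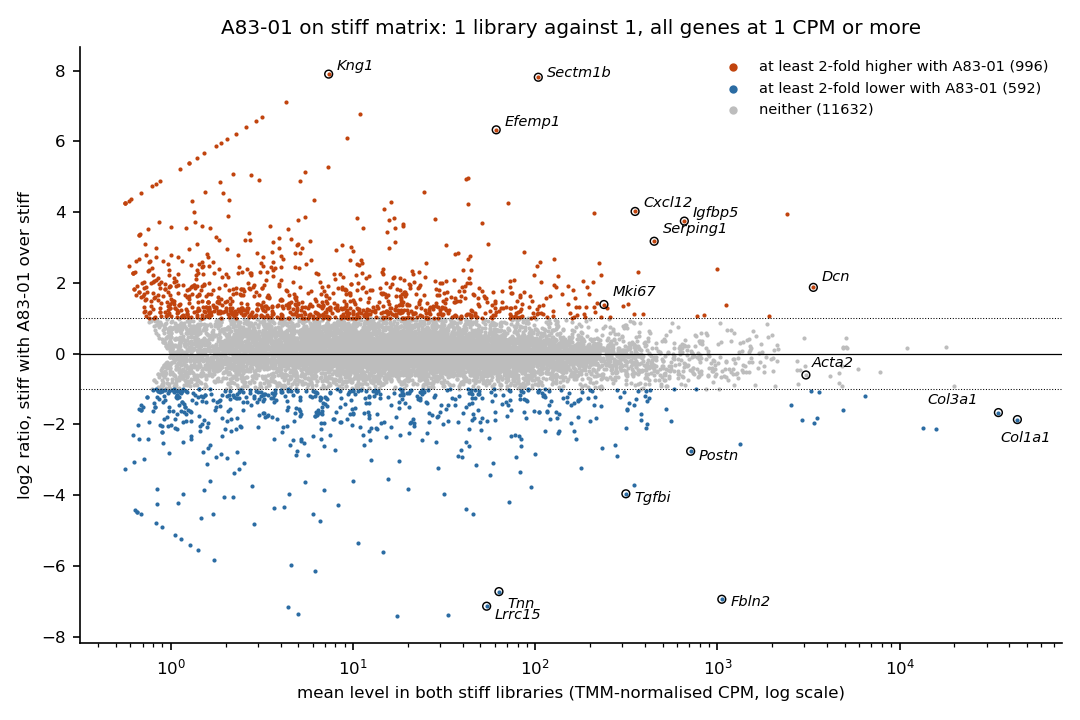
Log2 ratio of stiff with A83-01 over stiff (vertical axis) against the mean level of both stiff libraries in TMM-normalised CPM (horizontal axis, log scale), 1 point per gene, with dotted lines at 2-fold. Of 13220 genes, 996 lie at least 2-fold above and 592 at least 2-fold below, and Col1a1 and Col3a1 stand at the far right below the lower line.

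The inhibitor could be tested only over both matrices together, 2 libraries with A83-01 against 2 without, with matrix as an additive term and 1 residual degree of freedom. By edgeR's quasi-likelihood test, with p-values adjusted by Benjamini and Hochberg's method, 0 of 13634 genes rose (0.00%) and 6 fell (0.0440%) at an adjusted p of 0.05. At an unadjusted p of 0.05, 989 were up and 823 down, while DESeq2 called 219 up and 244 down after adjustment and limma-voom 0 up and 3 down. The labels do not say whether separate cultures or animals were used, so the p-values reflect the spread among these 4 libraries and nothing wider. That spread is not one among replicates: it comes from the difference between the stiff and soft responses. A response that depends on the matrix therefore counts as spread, which favours genes with like ratios on both matrices. The genes that fell included Col11a1, Col8a2 and Itga11. Col11a1 encodes a chain of collagen XI, a minor fibrillar collagen, and stood at 3.7 CPM in stiff with A83-01 and 79.2 CPM in stiff, and at 0.298 CPM in soft with A83-01 and 8.1 CPM in soft. It was lower with A83-01 on both matrices and fell by 4.51 on the log2 scale (SE 0.196, quasi-likelihood adjusted p = 0.0327). Itga11, the alpha subunit of a collagen-binding integrin, stood at 49.5 CPM in stiff with A83-01 and 648 CPM in stiff, and at 7.67 CPM in soft with A83-01 and 81.1 CPM in soft. It was lower with A83-01 on both matrices as well, and fell by 3.56 on the log2 scale (SE 0.178, quasi-likelihood adjusted p = 0.0357). Col8a2, a chain of the network-forming collagen VIII, fell by 3.58 on the log2 scale (SE 0.209, quasi-likelihood adjusted p = 0.0377).

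Among the ligands of the TGF-beta superfamily, 1 of 13 genes was at least 2-fold higher and 3 were lower, with a median log2 ratio of -0.20, which turns to 0.08 with total-count scaling, under which 3 were higher and 1 lower. The TGF-beta isoform genes themselves were lower with A83-01, short of the 2-fold call, which Tgfb1 does reach with pairwise TMM or DESeq2 scaling. Tgfb1, the isoform most tied to fibrosis, stood at 254 CPM in stiff with A83-01 and 505 CPM in stiff, and at 303 CPM in soft with A83-01 and 391 CPM in soft, which on stiff matrix is 1.99-fold lower (1.94 to 2.04). Tgfb3 stood at 236 CPM in stiff with A83-01 and 393 CPM in stiff, and at 9.1 CPM in soft with A83-01 and 11.8 CPM in soft, 1.67-fold lower (1.62 to 1.71) on stiff. Tgfb2 stood at 102 CPM in stiff with A83-01 and 118 CPM in stiff, 1.15-fold lower (1.1 to 1.2), a difference small enough to turn with total-count scaling. Per transcript length, on the authors' FPKM scale, Tgfb1 had a level of 102, Tgfb3 of 77.7 and Tgfb2 of 24.5 in stiff with A83-01, against 166, 105 and 22.1 FPKM in stiff. The order of Tgfb1 above Tgfb3 above Tgfb2 was the same in both stiff libraries. The genes for the inhibin alpha and activin A subunits, Inha and Inhba, were 2.61-fold and 2.37-fold lower, and Bmp6, a bone morphogenetic protein, was 2.42-fold lower (2.14 to 2.74). Gdf10, also called BMP3B, had 305 counts in stiff with A83-01 and 0 in stiff, at least 82.9-fold higher against a floor of 3 counts. It stood at 31.6 CPM in soft with A83-01 and 13.7 CPM in soft, so the stiff library without A83-01 was the one with no counts.

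The receptors that A83-01 acts on differed little at the RNA level. Tgfbr1, which encodes ALK5, stood at 17.6 CPM in stiff with A83-01 and 21.1 CPM in stiff, and Acvr1b, which encodes ALK4, at 25.6 CPM in stiff with A83-01 and 25.6 CPM in stiff, while Acvr1c, which encodes ALK7, had 0 counts in both. Tgfbr2, the type II TGF-beta receptor, stood at 346 CPM in stiff with A83-01 and 169.7 CPM in stiff, and at 377 CPM in soft with A83-01 and 196 CPM in soft. Both A83-01 libraries were high and both others low, and on stiff the receptor was 2.04-fold higher (1.97 to 2.11). Tgfbr3, the co-receptor betaglycan, was 3.46-fold higher (3.3 to 3.63) at 249.9 CPM in stiff with A83-01 and 72.1 CPM in stiff. Both receptor genes called lower belong to the BMP type I group: Bmpr1b had 0 counts in stiff with A83-01 and 61 in stiff, a level at least 24.9-fold lower, while Acvr1 was 2.15-fold lower (1.99 to 2.33). In all, 2 of 11 receptor genes were higher and 2 lower. Of 13 genes that store, free or bind the ligands, 3 were higher and 2 lower, with a median log2 ratio of -0.33. Thbs1, thrombospondin 1, which can release TGF-beta from its latent form, stood at 162 CPM in stiff with A83-01 and 595 CPM in stiff, 3.68-fold lower (3.57 to 3.79). Fstl3, a follistatin-like activin antagonist, was 4.46-fold lower (3.77 to 5.3), whereas follistatin itself, Fst, was 2.04-fold higher (1.58 to 2.66) and the latent TGF-beta binding protein Ltbp1 was 2.74-fold higher (2.49 to 3.02).

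Genes known as early targets of the pathway were lower with A83-01 on stiff matrix. Of 15 early target genes at the minimum, 7 were at least 2-fold lower, beside 4.48% of all genes, and 0 were higher; 14 of the 15 had a ratio below 1, and the median log2 ratio was -0.83. Tgfbi, a matrix protein named for its induction by TGF-beta, stood at 37.8 CPM in stiff with A83-01 and 591 CPM in stiff, and at 16.8 CPM in soft with A83-01 and 34.8 CPM in soft. The stiff library without A83-01 stood far above the other 3, and on stiff it was 15.6-fold lower (14.8 to 16.5). Pmepa1, a membrane protein that dampens SMAD activation, stood at 34.6 CPM in stiff with A83-01 and 324 CPM in stiff, and at 36.7 CPM in soft with A83-01 and 162 CPM in soft. Both A83-01 libraries were at one low level and both others were higher, and on stiff it was 9.35-fold lower (8.81 to 9.93). Skil, which encodes the SMAD corepressor SnoN, was 3.36-fold lower (2.85 to 3.96) at 5.64 CPM in stiff with A83-01 and 18.9 CPM in stiff. Smad7, the inhibitory SMAD, stood at 7.13 CPM in stiff with A83-01 and 12.5 CPM in stiff, and at 10.9 CPM in soft with A83-01 and 16.4 CPM in soft, 1.76-fold lower (1.49 to 2.07) on stiff and short of the 2-fold call. Lif, a cytokine of the interleukin 6 family, was 5.44-fold lower (4.07 to 7.39). Klf10, a TGF-beta-inducible transcription factor, was the one member above 1, at 76.5 CPM in stiff with A83-01 and 69.1 CPM in stiff. Scaled by total counts, 5 of the 15 were called lower.

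Among the SMADs and feedback inhibitors, 2 of 16 genes were lower and 0 higher, with a median log2 ratio of -0.18, or 0.11 with total-count scaling. The lower genes were Pmepa1 and Skil, which are already counted among the early targets above. The receptor-activated SMAD genes Smad3 and Smad1 stood at 59.9 CPM in stiff with A83-01 and 36.7 CPM in stiff and at 134 CPM in stiff with A83-01 and 88.8 CPM in stiff. Targets of BMP signalling leaned the other way: 3 of 9 genes were higher and 0 lower, with a median log2 ratio of 0.43. A ratio above 1 was found for 6 of the 9 and one below 1 for 3, and Smad6 and Bambi were on both lists. Id1, an inhibitor of basic helix-loop-helix factors, was 2.38-fold higher (2.02 to 2.82) at 15.9 CPM in stiff with A83-01 and 6.67 CPM in stiff, and Id4 was 2.37-fold higher (2.08 to 2.7). Atoh8, a transcription factor of BMP-stimulated endothelium, was 3.14-fold higher (2.72 to 3.63).

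Ctgf, or Ccn2, a secreted matricellular protein that is a target of both SMADs and YAP, stood at 234 CPM in stiff with A83-01 and 879 CPM in stiff, and at 14.9 CPM in soft with A83-01 and 55.4 CPM in soft. On each matrix the A83-01 library was the lower one, 3.76-fold lower (3.67 to 3.85) on stiff and 3.72-fold lower (3.37 to 4.11) on soft. Its promoter is shown because it holds both the SMAD element CAGAC and the TEAD element GGAATG. The window runs from 250 bases before to 50 after the RefSeq start, at chr1:22624565-22624864 on the minus strand of GRCr8, a later build than the Rnor_6.0 of the count table, and capitals mark CAGAC on the printed strand.
Ctgf: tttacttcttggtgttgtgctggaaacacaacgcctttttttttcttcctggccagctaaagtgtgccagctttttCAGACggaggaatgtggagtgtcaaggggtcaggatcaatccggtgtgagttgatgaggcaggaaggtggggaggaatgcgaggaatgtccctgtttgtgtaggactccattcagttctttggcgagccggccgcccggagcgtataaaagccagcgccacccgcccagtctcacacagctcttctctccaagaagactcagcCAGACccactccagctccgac
Of 15 early targets, 11 had a promoter in the RefSeq table, and 7 of these (63.6%) held CAGAC on either strand, against 50.1% of all 33469 promoters, while 1, Ctgf, held GGAATG, against 14.2%. A match describes these letters and no binding site. Here and below, each list gene was read by 1 window, called or not, while the share of all promoters counts every RefSeq window. Such shares describe the lists and not the response to A83-01.

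**Figure D2:**
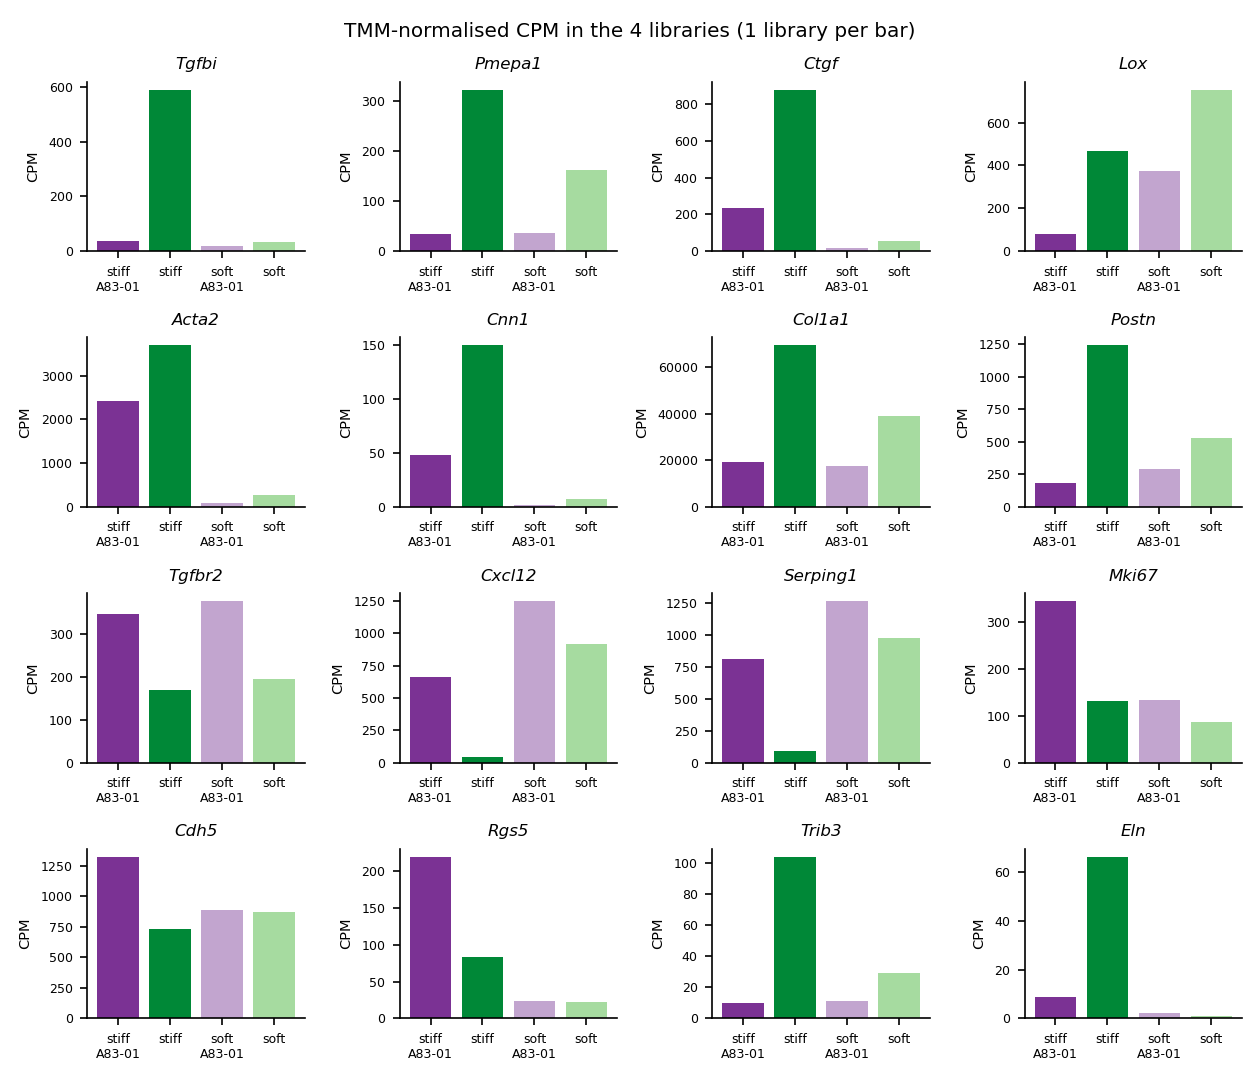
Level of 16 genes in the 4 libraries, as TMM-normalised CPM from 0 (vertical axes), with 1 library per bar. On stiff matrix Tgfbi, Pmepa1, Ctgf, Col1a1, Postn, Trib3 and Eln have the lower bar with A83-01, and Tgfbr2, Cxcl12, Serping1, Mki67, Cdh5 and Rgs5 the higher one.

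The fibrillar collagens, which form the load-bearing fibres of connective tissue, were lower together. Of 8 genes at the minimum, 7 were at least 2-fold lower and 0 higher, with a median log2 ratio of -1.82, against 0.02 over all genes. With its genes below the minimum included, the list summed to 40125 CPM in stiff with A83-01 and 137259 CPM in stiff. Col1a1, a chain of collagen I, stood at 19079 CPM in stiff with A83-01 and 69475 CPM in stiff, and at 17577 CPM in soft with A83-01 and 39252 CPM in soft. Stiff without A83-01 was the highest of the 4 libraries, and on stiff it was 3.64-fold lower (3.63 to 3.65) against 2.23-fold lower (2.23 to 2.24) on soft. Col3a1, the chain of collagen III, stood at 16688 CPM in stiff with A83-01 and 52984 CPM in stiff, and at 7047 CPM in soft with A83-01 and 15996 CPM in soft, 3.17-fold lower (3.17 to 3.18) on stiff. The chains Col5a1 and Col5a3 of collagen V, which sets fibril diameter, were 3.87-fold and 3.51-fold lower. On soft matrix the same list also had 7 of its 8 members called lower, with a median log2 ratio of -1.16. Among 10 other collagens, 5 were lower and 1 higher. The fibril-associated Col12a1 stood at 1234 CPM in stiff with A83-01 and 4575 CPM in stiff, 3.71-fold lower (3.67 to 3.75), the anchoring-fibril chain Col7a1 was 6.17-fold lower (5.73 to 6.66) and Col16a1 was 3.99-fold lower (3.87 to 4.11). Collagen XVIII, Col18a1, a vascular basement membrane proteoglycan that is the source of endostatin, was 2.1-fold higher (2.07 to 2.12) at 2605 CPM in stiff with A83-01 and 1243 CPM in stiff.

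Among enzymes that modify and crosslink collagen, 7 of 21 genes were called lower and 1 higher, with a median log2 ratio of -0.76. Plod2, the lysyl hydroxylase of collagen telopeptides, stood at 12.8 CPM in stiff with A83-01 and 178 CPM in stiff, and at 21.5 CPM in soft with A83-01 and 113 CPM in soft. Both A83-01 libraries were well below their matrix partner, and on stiff it was 13.8-fold lower (12.6 to 15.3). Lysyl oxidase, Lox, which starts the crosslinks of collagen and elastin, stood at 77.7 CPM in stiff with A83-01 and 467 CPM in stiff, and at 373 CPM in soft with A83-01 and 754 CPM in soft, 6.01-fold lower (5.77 to 6.27) on stiff. The prolyl hydroxylase subunit P4ha3 was 4.97-fold lower (4.62 to 5.35). PCOLCE2, an enhancer of procollagen trimming, had 0 counts in stiff with A83-01 and 66 in stiff, at least 27-fold lower. P3h2, a prolyl 3-hydroxylase of basement membrane collagen, was the single member called higher, at 4.35 CPM in stiff with A83-01 and 1.38 CPM in stiff.

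Elastic fibre genes divided. Of 11 genes, 4 were lower and 2 higher, and they held some of the widest folds in either direction. Fibulin 2, Fbln2, stood at 17 CPM in stiff with A83-01 and 2096 CPM in stiff, and at 9.79 CPM in soft with A83-01 and 143 CPM in soft. Stiff without A83-01 stood far above the other 3 libraries, and on stiff it was 124-fold lower (114 to 134). Elastin, Eln, stood at 8.84 CPM in stiff with A83-01 and 66.3 CPM in stiff, and at 2.03 CPM in soft with A83-01 and 1.08 CPM in soft. It was 7.5-fold lower (6.66 to 8.48) with A83-01 on stiff, while on soft both values were near the minimum and ran in the opposite direction, 1.89-fold higher (1.24 to 2.91). Fibrillin 2, Fbn2, and fibulin 5, Fbln5, which assembles elastin onto microfibrils, were 9.53-fold and 7.1-fold lower. Fibulin 3, Efemp1, stood at 121 CPM in stiff with A83-01 and 1.44 CPM in stiff, and at 41.3 CPM in soft with A83-01 and 2.93 CPM in soft. With A83-01 it was 83.5-fold higher (61.7 to 116) on stiff, and on soft it was 14.1-fold higher (11.5 to 17.5).

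Matricellular proteins, which sit in the matrix and act on cells, had 6 of 17 genes lower and 1 higher, or 3 higher with total-count scaling. Periostin, Postn, a collagen-binding protein of remodelling matrix, stood at 183 CPM in stiff with A83-01 and 1243 CPM in stiff, and at 293 CPM in soft with A83-01 and 526 CPM in soft, 6.78-fold lower (6.61 to 6.96) on stiff. Tenascin W, Tnn, stood at 1.12 CPM in stiff with A83-01 and 125 CPM in stiff, and at 1.13 CPM in soft with A83-01 and 13.1 CPM in soft. Its level with A83-01 was close on both matrices, and the stiff library without it was the highest, which made it 112-fold lower (81.9 to 157) on stiff. Wisp1, or CCN4, was 18.3-fold lower (16.1 to 20.8) at 7.46 CPM in stiff with A83-01 and 136 CPM in stiff. Fibronectin, Fn1, stood at 3771 CPM in stiff with A83-01 and 5566 CPM in stiff, and at 6412 CPM in soft with A83-01 and 4273 CPM in soft: it was 1.48-fold lower (1.47 to 1.49) on stiff and 1.5-fold higher (1.49 to 1.51) on soft. Thbs4, thrombospondin 4, was called higher at 2.78 CPM in stiff with A83-01 and 0.447 CPM in stiff. Small leucine-rich proteoglycans had 4 of 10 genes lower and 2 higher. With total-count scaling 1 was lower, and their median log2 ratio of -0.16 turned to 0.12. Decorin, Dcn, which binds collagen and TGF-beta, stood at 5279 CPM in stiff with A83-01 and 1442 CPM in stiff, and at 21955 CPM in soft with A83-01 and 11520.1 CPM in soft. It was 3.66-fold higher (3.62 to 3.7) with A83-01 on stiff and 1.91-fold higher (1.9 to 1.91) on soft, and each stiff library was below each soft one. Biglycan, Bgn, its close relative, was 2.3-fold lower (2.29 to 2.32) on stiff, asporin, Aspn, was 6.7-fold lower (5.99 to 7.52) and Prelp was 7.85-fold higher (5.91 to 10.6).

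Basement membrane genes, whose products underlie endothelium and surround pericytes, had 2 of 15 genes higher and 1 lower, with a median log2 ratio of 0.20. With total-count scaling 5 were higher. The laminin chain Lama3 was 3.72-fold higher (2.49 to 5.73), the chains Lamb2 and Lama5 stood at 730.1 CPM in stiff with A83-01 and 399 CPM in stiff and at 225 CPM in stiff with A83-01 and 131 CPM in stiff, and the collagen IV chain Col4a5 was 2.97-fold lower (2.7 to 3.28). Among 25 matrix proteases and their inhibitors, 9 were lower and 2 higher, or 4 lower and 3 higher with total-count scaling. The tissue plasminogen activator, Plat, stood at 94.9 CPM in stiff with A83-01 and 335 CPM in stiff, 3.53-fold lower (3.39 to 3.67), and its inhibitor Serpine2, or nexin 1, was 2.55-fold lower (2.48 to 2.61). The membrane metalloprotease Mmp16 had 0 counts in stiff with A83-01 and 38 in stiff, making it at least 15.5-fold lower, and the collagenase Mmp13 was 4.83-fold lower (3.53 to 6.73). The metalloprotease inhibitor Timp3 was 2.95-fold higher (2.79 to 3.11) at 171 CPM in stiff with A83-01 and 58.1 CPM in stiff.

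Integrin and focal adhesion genes had 1 of 23 members lower, the collagen receptor Itga11 described above at 13.1-fold lower, and 2 higher, with a median log2 ratio of -0.27, which turns to 0.0093 with total-count scaling. These shares, 8.70% higher and 4.35% lower, were near the 7.53% and 4.48% of all genes. Itga3, the alpha subunit of a laminin receptor, stood at 40.4 CPM in stiff with A83-01 and 8.98 CPM in stiff, and at 37.3 CPM in soft with A83-01 and 11.4 CPM in soft, 4.5-fold higher (3.94 to 5.16) on stiff. Itga5, a subunit of the fibronectin receptor, stood at 285 CPM in stiff with A83-01 and 517 CPM in stiff, 1.81-fold lower (1.77 to 1.86), and the adaptor Vcl at 510.2 CPM in stiff with A83-01 and 411 CPM in stiff, 1.24-fold higher (1.21 to 1.27). Of 20 targets of YAP and TEAD, the transcription factors that read out mechanical load, 1 was lower, namely Ctgf, and 1 higher, with a median log2 ratio of -0.08. Each call took 5% of the list, beside 7.53% of all genes higher and 4.48% lower. Nt5e, the ecto-nucleotidase CD73, was the higher one, 6.83-fold higher (6.09 to 7.68) at 76.6 CPM in stiff with A83-01 and 11.2 CPM in stiff. Amotl2, which encodes an angiomotin-like YAP regulator, stood at 126 CPM in stiff with A83-01 and 237 CPM in stiff, 1.88-fold lower (1.81 to 1.95).

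Smooth muscle contractile genes, by which myofibroblasts are recognised, were called lower at about the share of all genes. Of 18 genes, 1 was at least 2-fold lower (5.56%, beside 4.48% of all genes) and 0 higher, and 14 had a ratio below 1, with a median log2 ratio of -0.46. Calponin, Cnn1, was the called gene, at 48.3 CPM in stiff with A83-01 and 149.8 CPM in stiff, and at 1.28 CPM in soft with A83-01 and 7.47 CPM in soft. It was 3.1-fold lower (2.93 to 3.28) on stiff. Smooth muscle actin, Acta2, stood at 2428 CPM in stiff with A83-01 and 3691 CPM in stiff, and at 88.9 CPM in soft with A83-01 and 271 CPM in soft. On stiff it was 1.52-fold lower (1.51 to 1.53) with A83-01, and both stiff libraries stood far above both soft ones. Transgelin, Tagln, stood at 1126 CPM in stiff with A83-01 and 2101 CPM in stiff, and at 38.3 CPM in soft with A83-01 and 130.0 CPM in soft, 1.87-fold lower (1.84 to 1.89) on stiff. On soft matrix 3 genes of the list were called lower, namely Cnn1 at 5.82-fold lower (4.2 to 8.24), Tagln at 3.39-fold lower (3.19 to 3.61) and Acta2 at 3.05-fold lower (2.92 to 3.18). Smooth muscle myosin, Myh11, stood at 597 CPM in stiff with A83-01 and 718 CPM in stiff, 1.2-fold lower (1.18 to 1.23), a difference that turns with total-count scaling. Desmin, Des, and the myosin kinase gene Mylk were 1.28-fold and 1.12-fold higher. Summed over the list, the level was 10450.3 CPM in stiff with A83-01 and 14886 CPM in stiff, and 1918 CPM in soft with A83-01 and 2774 CPM in soft. Among 9 regulators of these genes, 0 were called higher and 0 lower at 2-fold: myocardin, Myocd, the smooth muscle coactivator, stood at 4.26 CPM in stiff with A83-01 and 6.3 CPM in stiff, and Srf, the factor it works with, at 129 CPM in stiff with A83-01 and 150.1 CPM in stiff. Of the 18 contractile genes, 14 had a RefSeq promoter. The SRF-binding CArG box lay in 0 of these, against 1.64% of all promoters, CAGAC in 8 (57.1%) against 50.1%, and GGAATG in 5 (35.7%) against 14.2%. Absence from this window says only that the letters are not in it.

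Genes of activated fibroblasts and of resting fibroblasts went opposite ways. Of 17 activated fibroblast genes, 9 were lower and 1 higher (median log2 ratio -1.08), and of 17 resting fibroblast genes, 9 were higher and 1 lower (median log2 ratio 1.29). Lrrc15, a membrane protein of TGF-beta-driven myofibroblasts, stood at 0.701 CPM in stiff with A83-01 and 108 CPM in stiff, and at 0.686 CPM in soft with A83-01 and 17.9 CPM in soft. Both A83-01 libraries were at one low level, and on stiff it was 153-fold lower (104 to 237). Grem1, a BMP antagonist, stood at 9.57 CPM in stiff with A83-01 and 84.9 CPM in stiff, 8.87-fold lower (7.92 to 9.96), the adhesion molecule Ncam1 at 52.9 CPM in stiff with A83-01 and 282 CPM in stiff, 5.33-fold lower (5.07 to 5.61), and Cdh11, the fibroblast cadherin, at 41 CPM in stiff with A83-01 and 186 CPM in stiff, 4.53-fold lower (4.28 to 4.81). Fap, the fibroblast activation protease, was 3.73-fold lower (3.45 to 4.04). Sfrp1, a secreted Wnt antagonist, was the member called higher, 3.36-fold higher (3.15 to 3.59). On the resting side, the chemokine Cxcl12, which retains stem and immune cells, stood at 665 CPM in stiff with A83-01 and 41 CPM in stiff, and at 1249 CPM in soft with A83-01 and 915 CPM in soft. The stiff library without A83-01 was far below the other 3, and on stiff it was 16.2-fold higher (15.3 to 17.2). Igf1, the growth factor IGF-1, stood at 28.3 CPM in stiff with A83-01 and 2.55 CPM in stiff, and at 10.7 CPM in soft with A83-01 and 4.54 CPM in soft, 11.1-fold higher (8.78 to 14.3) on stiff. Tetranectin, Clec3b, a plasminogen-binding protein, was 4.95-fold higher (4.3 to 5.73), dermatopontin, Dpt, was 2.75-fold higher (2.56 to 2.95), and the calcium-binding Smoc2 was the member called lower, at 0.814 CPM in stiff with A83-01 and 1.89 CPM in stiff. Soft matrix had 8 of the activated genes called lower, while its resting list had 3 called in each direction.

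Transcription factors of mesenchymal transition had 4 of 12 genes lower and 0 higher. Sox9, the master factor of cartilage, had 0 counts in stiff with A83-01 and 257 in stiff, making it at least 105-fold lower, and stood at 0.955 CPM in soft with A83-01 and 2.15 CPM in soft. Runx2, the factor of bone formation, stood at 12.5 CPM in stiff with A83-01 and 50.2 CPM in stiff, and at 19.2 CPM in soft with A83-01 and 40.5 CPM in soft, and was 4.0-fold lower (3.6 to 4.46) on stiff. Runx1 was 3.02-fold lower (2.79 to 3.27). The repressors Zeb2 and Zeb1 stood at 221 CPM in stiff with A83-01 and 124 CPM in stiff and at 69.1 CPM in stiff with A83-01 and 48 CPM in stiff, short of the call. Among 7 cartilage and bone genes at the minimum, 4 were lower and 0 higher. Sox9 and Runx2 are on this list as well, so they are counted again among its lower genes. The phosphatase of mineralising matrix, Alpl, was 3.55-fold lower (2.6 to 4.9).

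**Figure D3:**
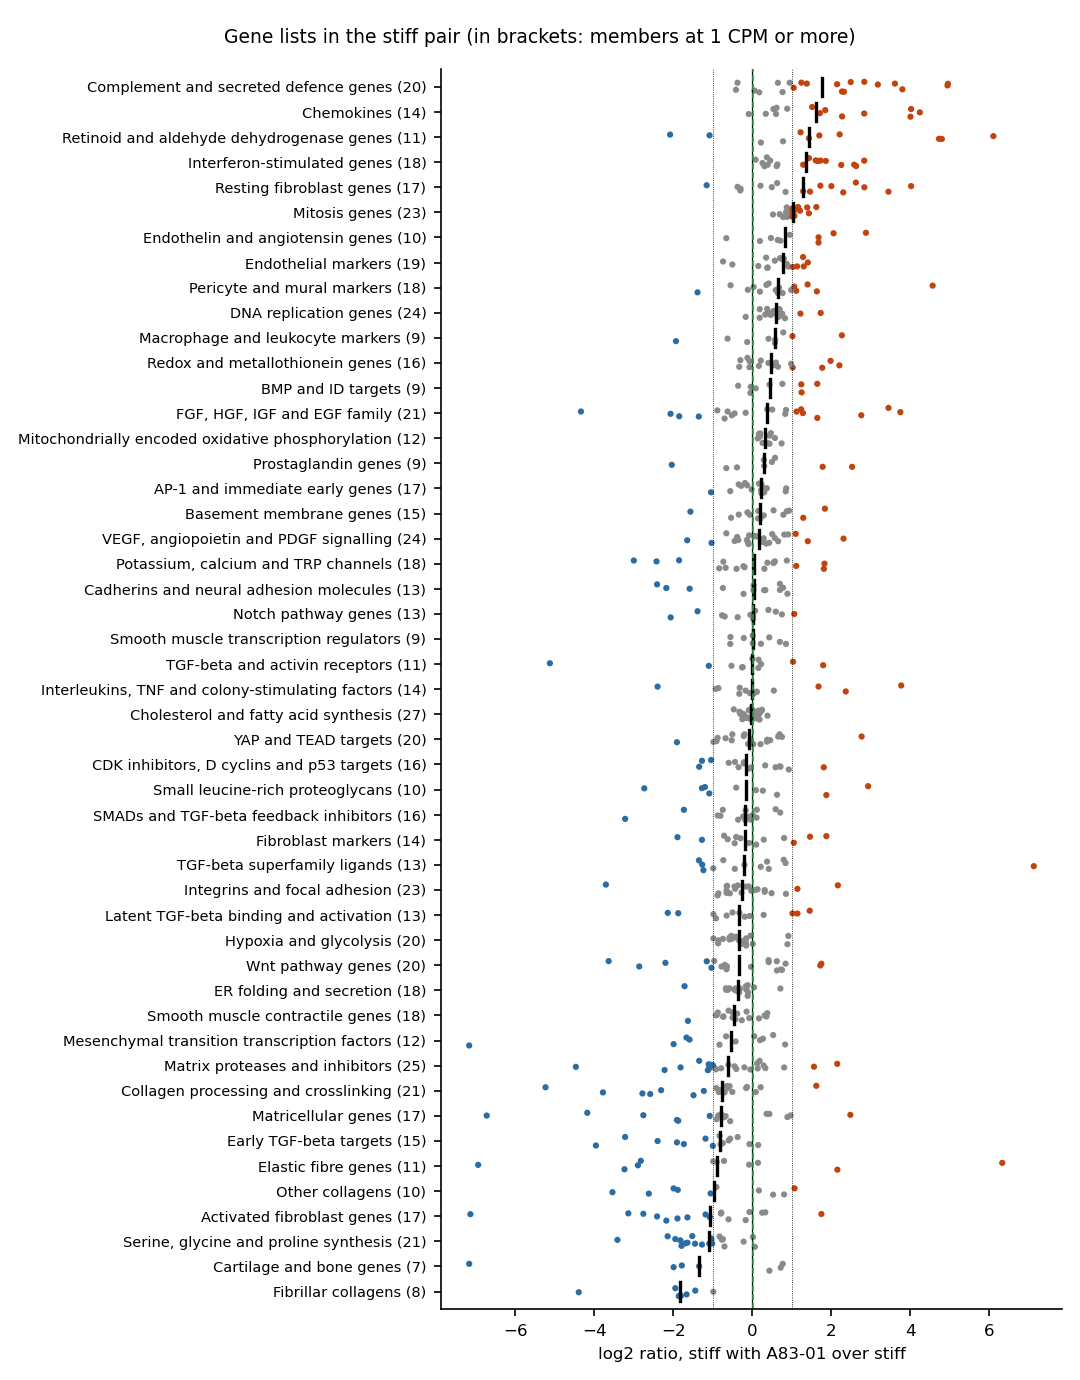
Log2 ratio of stiff with A83-01 over stiff for the members of each gene list (1 point per gene; orange at least 2-fold higher, blue at least 2-fold lower, grey neither), with the list median as a black bar and the median of all genes as a dashed green line. Complement genes (median 1.76) and chemokines (1.61) stand at the top, and serine synthesis genes (-1.09) and fibrillar collagens (-1.82) near the bottom.

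Most endothelial and mural markers had ratios above 1 in the stiff pair. In bulk RNA, more cells of a type and more RNA per cell cannot be told apart, and the part of cell numbers in the results above and below was not tested. Of 19 endothelial markers, 5 were at least 2-fold higher and 0 lower, or 11 higher with total-count scaling, and 17 had a ratio above 1, with a median log2 ratio of 0.78. The whole list summed to 3544 CPM in stiff with A83-01 and 2218 CPM in stiff, against 2636 CPM in soft with A83-01 and 2641 CPM in soft. Cdh5 was 1.82-fold higher (1.79 to 1.85). The angiopoietin receptor Tek stood at 23 CPM in stiff with A83-01 and 8.67 CPM in stiff, and at 12.4 CPM in soft with A83-01 and 8.9 CPM in soft, 2.66-fold higher (2.3 to 3.07) on stiff, and the endothelial transcription factor Fli1 was 2.47-fold higher (2.24 to 2.72). Von Willebrand factor, Vwf, ran the other way: it stood at 18.6 CPM in stiff with A83-01 and 31.2 CPM in stiff, and at 48 CPM in soft with A83-01 and 126 CPM in soft, 1.68-fold lower (1.51 to 1.86) on stiff.

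Of 18 pericyte and mural markers, 5 were higher and 1 lower, with a median log2 ratio of 0.64, and their sum was 6533 CPM in stiff with A83-01 and 5106 CPM in stiff. Rgs5, a G-protein regulator abundant in pericytes, stood at 219.7 CPM in stiff with A83-01 and 83.4 CPM in stiff, and at 23.2 CPM in soft with A83-01 and 21.9 CPM in soft. It was 2.64-fold higher (2.52 to 2.76) on stiff and near level on soft. The potassium channel subunit Kcnj8 stood at 99.1 CPM in stiff with A83-01 and 45.9 CPM in stiff, 2.16-fold higher (2.03 to 2.3), and Notch3, the mural Notch receptor, was 2.08-fold higher (2.05 to 2.13). Steap4, a metalloreductase, was 24.4-fold higher (18.7 to 32.4) at 46.9 CPM in stiff with A83-01 and 1.93 CPM in stiff. Pdgfrb was 1.08-fold lower (1.07 to 1.1) and the proteoglycan Cspg4, or NG2, 1.47-fold lower (1.39 to 1.54), and of these the Pdgfrb difference turns with total-count scaling. Heyl, a Notch target, was the member called lower, 2.62-fold lower (2.51 to 2.73).

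Fibroblast markers had 3 of 14 genes higher and 2 lower, with a median log2 ratio of -0.19 that turns to 0.09 with total-count scaling, and a sum of 14354 CPM in stiff with A83-01 and 12528 CPM in stiff. Decorin, described above, is on this list, and its own rise with A83-01 was larger than that of the sum. Macrophage and leukocyte markers were low: 14 genes, 9 of them at the minimum, summed to 102 CPM in stiff with A83-01 and 88.7 CPM in stiff, with 2 called higher and 1 lower. The lysozyme gene Lyz2 was 3.85-fold lower (3.3 to 4.51) at 6.09 CPM in stiff with A83-01 and 23.5 CPM in stiff, and the macrophage receptor Adgre1 was 5.33-fold higher (2.96 to 10.4) at 2.38 CPM in stiff with A83-01 and 0.447 CPM in stiff. Of 5 lymphatic markers, 2 were higher and 0 lower, and of 5 adipocyte markers, 2 were higher and 0 lower, among them Pparg, a nuclear receptor of fat cells, 2.53-fold higher (2.19 to 2.94). Of 7 Schwann cell and nerve markers, 2 were higher and 1, Ncam1, was lower, and the glial factor Sox10 stood at 2.86 CPM in stiff with A83-01 and 1.27 CPM in stiff. Keratinocyte and skeletal muscle lists had 2 members each at the minimum, and with their other genes included the lists summed to between 2.95 and 11 CPM per stiff library.

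Complement and secreted defence genes, which tag microbes and debris or restrain that cascade, held one of the highest list medians. The call of at least 2-fold higher took 13 of 20 genes, beside 7.53% of all genes, and that of lower took 0, with a median log2 ratio of 1.76. The whole list summed to 3874 CPM in stiff with A83-01 and 1239 CPM in stiff, against 8573 CPM in soft with A83-01 and 7569 CPM in soft. Serping1, the C1 inhibitor, stood at 809.6 CPM in stiff with A83-01 and 89.5 CPM in stiff, and at 1262 CPM in soft with A83-01 and 975 CPM in soft. The stiff library without A83-01 was well below the other 3, and on stiff it was 9.04-fold higher (8.68 to 9.41) against 1.29-fold higher (1.28 to 1.31) on soft. C6, a component of the membrane attack complex, stood at 81 CPM in stiff with A83-01 and 2.58 CPM in stiff, and at 102 CPM in soft with A83-01 and 39.7 CPM in soft, 31.4-fold higher (25 to 40.0) on stiff. C4b stood at 82.7 CPM in stiff with A83-01 and 2.61 CPM in stiff, and at 45.5 CPM in soft with A83-01 and 28.1 CPM in soft, 31.6-fold higher (25.2 to 40.2) on stiff, and C4a was 14.1-fold higher (11.6 to 17.3), but the pair is nearly identical in sequence, which leaves the split of reads between them uncertain. C3, the central component, stood at 8.47 CPM in stiff with A83-01 and 1.14 CPM in stiff, and at 387 CPM in soft with A83-01 and 696 CPM in soft: it was 7.46-fold higher (5.2 to 11) on stiff and 1.8-fold lower (1.76 to 1.84) on soft. The plot of levels in the stiff libraries shows these genes beside the collagens and the amino acid genes.

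**Figure D4:**
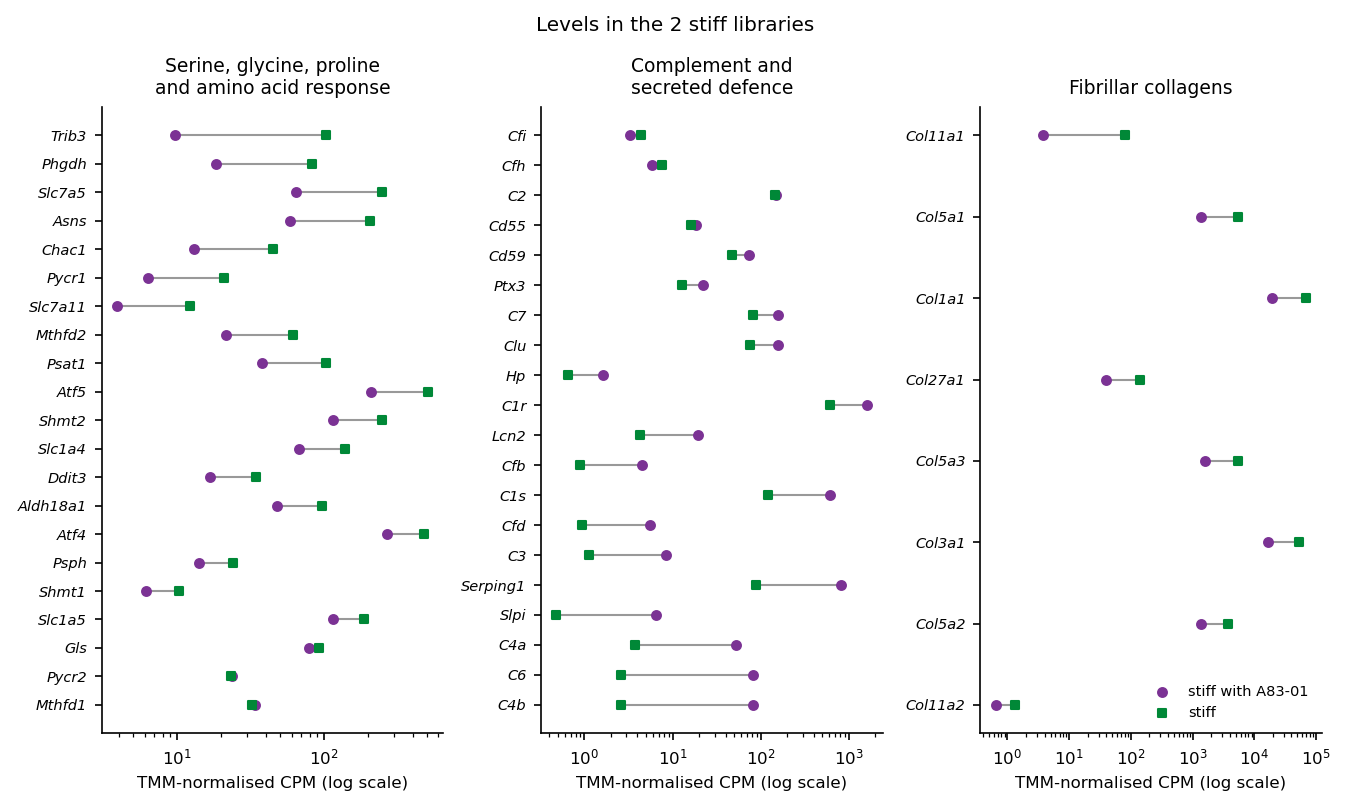
Level in stiff with A83-01 (circles) and stiff (squares) for the members of 3 gene lists, as TMM-normalised CPM (horizontal axes, log scale), with genes ordered by their ratio. In the amino acid and collagen panels nearly all circles lie left of their squares, and in the complement panel 18 of 20 lie to the right.

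Chemokines had 8 of 14 genes higher and 0 lower, with a median log2 ratio of 1.61. Cxcl14, a chemokine of monocytes and dendritic cells, stood at 81.6 CPM in stiff with A83-01 and 4.27 CPM in stiff, and at 38 CPM in soft with A83-01 and 46.7 CPM in soft. The stiff library without A83-01 was the low one of the 4, and on stiff the gene was 19.1-fold higher (16 to 23.1). Most chemokine signal of the series lay on soft matrix, where the list summed to 2724 CPM in soft with A83-01 and 2438 CPM in soft, against 1199.8 CPM in stiff with A83-01 and 283 CPM in stiff. Among 14 interleukins, colony-stimulating factors and adhesion genes, 3 were higher and 1 lower. Vcam1, the adhesion molecule of inflamed vessels, stood at 29.3 CPM in stiff with A83-01 and 2.1 CPM in stiff, and at 48.1 CPM in soft with A83-01 and 21.9 CPM in soft, 14-fold higher (10.8 to 18.4) on stiff, the macrophage growth factor Il34 was 5.16-fold higher (4.66 to 5.74) and the alarmin Il33 was 3.19-fold higher (3.04 to 3.36). Il6 stood at 3.7 CPM in stiff with A83-01 and 6.78 CPM in stiff, 1.83-fold lower (1.46 to 2.3) and short of the call.

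Interferon-stimulated genes had 10 of 18 members higher and 0 lower, with every ratio above 1 and a median log2 ratio of 1.36. Several called members were low: Cxcl10, a T cell chemokine, stood at 5.27 CPM in stiff with A83-01 and 0.688 CPM in stiff, and at 3.46 CPM in soft with A83-01 and 1.34 CPM in soft, 7.67-fold higher (4.82 to 12.8) on stiff, the antiviral Rsad2, or viperin, at 2.97 CPM in stiff with A83-01 and 0.447 CPM in stiff, 6.65-fold higher (3.73 to 12.9), and the deconjugating enzyme Usp18 at 2.02 CPM in stiff with A83-01 and 0.275 CPM in stiff, 7.34-fold higher (3.53 to 17.6). Cxcl10, Rsad2 and Usp18 were below 1 CPM in stiff, so each entered through the A83-01 library alone and could only be higher. The 10 calls include them. Gbp2, a guanylate-binding GTPase, stood at 35.7 CPM in stiff with A83-01 and 9.8 CPM in stiff, 3.64-fold higher (3.2 to 4.16). The Cxcl10 promoter is shown because it holds the interferon-stimulated response element, written in capitals, in the window at chr14:15988816-15989115 on the plus strand of GRCr8, from RefSeq.
Cxcl10: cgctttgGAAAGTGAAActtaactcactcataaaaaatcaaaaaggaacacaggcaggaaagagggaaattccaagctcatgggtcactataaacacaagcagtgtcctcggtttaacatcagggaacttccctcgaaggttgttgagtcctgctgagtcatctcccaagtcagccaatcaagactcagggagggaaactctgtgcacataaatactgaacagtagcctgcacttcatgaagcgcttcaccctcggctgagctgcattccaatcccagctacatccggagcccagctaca
This motif was chosen after the values were seen. On either strand it lay in 9 of 13 interferon-stimulated genes with a promoter in the table (69.2%), against 3.92% of all promoters. Of these 13 genes, 8 were called higher, and 6 of the 8 held it.

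Genes of cell division were higher with A83-01 on stiff matrix. Of 23 mitosis genes, 14 were called higher at 2-fold and 0 called lower, every ratio was above 1, and the log2 ratios ran from 0.52 to 1.62 around a median of 1.02, close to the 2-fold line. With total-count scaling 21 were called. Mki67, the proliferation antigen Ki-67, stood at 345 CPM in stiff with A83-01 and 132 CPM in stiff, and at 133 CPM in soft with A83-01 and 85.7 CPM in soft. Stiff with A83-01 was the highest of the 4 libraries, and the gene was 2.62-fold higher (2.52 to 2.71) on stiff and 1.55-fold higher (1.48 to 1.63) on soft. Cenpf and Cenpe, kinetochore proteins, stood at 79 CPM in stiff with A83-01 and 25.7 CPM in stiff and at 87.7 CPM in stiff with A83-01 and 32.5 CPM in stiff, 3.08-fold and 2.7-fold higher. Summed, the list stood at 1900.4 CPM in stiff with A83-01 and 895 CPM in stiff, and at 798 CPM in soft with A83-01 and 672 CPM in soft. Of 24 DNA replication genes, 2 were called higher (8.33%, beside 7.53% of all genes) and 0 lower. The calls were thus near the share of all genes, while 23 had a ratio above 1, with a median log2 ratio of 0.61. Total-count scaling called 4 higher. Cdc45, a part of the replicative helicase, stood at 50.5 CPM in stiff with A83-01 and 15.2 CPM in stiff, and at 7.52 CPM in soft with A83-01 and 7.83 CPM in soft, 3.32-fold higher (2.99 to 3.7) on stiff, and thymidylate synthase, Tyms, was 2.33-fold higher (2.03 to 2.69). Cyclin D1, Ccnd1, which drives entry into the cycle, stood at 46.2 CPM in stiff with A83-01 and 13.1 CPM in stiff, and at 66.9 CPM in soft with A83-01 and 38 CPM in soft, 3.51-fold higher (3.14 to 3.94) on stiff. The cell cycle inhibitor p21, Cdkn1a, stood at 50.8 CPM in stiff with A83-01 and 123 CPM in stiff, and at 106 CPM in soft with A83-01 and 106 CPM in soft, 2.43-fold lower (2.29 to 2.57) on stiff and level on soft. In that list of 16 inhibitors, D cyclins and p53 targets, 3 were lower (1 with total-count scaling) and 1 higher, with a median log2 ratio of -0.15 that turns to 0.13 with total-count scaling. The Cenpf promoter is shown as an example of the cell cycle homology region TTTGAA, in capitals, at chr13:103760837-103761136 on the minus strand of GRCr8, from RefSeq.
Cenpf: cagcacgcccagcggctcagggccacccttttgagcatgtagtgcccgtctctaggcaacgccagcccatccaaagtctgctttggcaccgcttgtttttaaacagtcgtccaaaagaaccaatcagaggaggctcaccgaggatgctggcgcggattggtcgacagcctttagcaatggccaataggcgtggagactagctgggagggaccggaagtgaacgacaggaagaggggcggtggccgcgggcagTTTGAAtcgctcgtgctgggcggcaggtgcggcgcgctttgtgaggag
This motif, also chosen after the values were seen, lay on either strand in 13 of 19 mitosis genes with a promoter (68.4%), against 18.3% of all promoters.

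Genes of serine, glycine and proline synthesis and of the amino acid response were lower together. These amino acids make up much of collagen, and the transcription factor ATF4 is known to switch on many of the genes. Of 21 genes, 14 were at least 2-fold lower and 0 higher, with a median log2 ratio of -1.09, and 9 were lower with total-count scaling. Trib3, a pseudokinase induced by ATF4, stood at 9.65 CPM in stiff with A83-01 and 104 CPM in stiff, and at 10.8 CPM in soft with A83-01 and 28.8 CPM in soft. The stiff library without A83-01 was the highest and both A83-01 libraries were alike, and the gene was 10.7-fold lower (9.61 to 12) on stiff and 2.66-fold lower (2.36 to 3.01) on soft. Phgdh, the first enzyme of serine synthesis, stood at 18.5 CPM in stiff with A83-01 and 82.1 CPM in stiff, and at 7.7 CPM in soft with A83-01 and 23.8 CPM in soft, 4.44-fold lower (4.07 to 4.85) on stiff. Slc7a5, a transporter of large neutral amino acids, was 3.87-fold lower (3.69 to 4.06) at 64.2 CPM in stiff with A83-01 and 249 CPM in stiff, and asparagine synthetase, Asns, was 3.54-fold lower (3.37 to 3.73) at 58.1 CPM in stiff with A83-01 and 206 CPM in stiff. On soft matrix 3 members were called lower, with a median log2 ratio of -0.42. Promoters of 3 members with the C/EBP-ATF element TGATGNAA are shown, with the match in capitals on whichever strand it lies: Trib3, the glutathione-degrading Chac1 and the proline-forming Pycr1. Chac1 and Pycr1 were picked for this motif, which was itself chosen after the values were seen, and stood at 13 CPM in stiff with A83-01 and 45.1 CPM in stiff and at 6.34 CPM in stiff with A83-01 and 20.7 CPM in stiff. The RefSeq windows are chr3:161275484-161275783 on the minus strand, chr3:126795881-126796180 on the plus strand and chr10:106420763-106421062 on the minus strand of GRCr8.
Trib3: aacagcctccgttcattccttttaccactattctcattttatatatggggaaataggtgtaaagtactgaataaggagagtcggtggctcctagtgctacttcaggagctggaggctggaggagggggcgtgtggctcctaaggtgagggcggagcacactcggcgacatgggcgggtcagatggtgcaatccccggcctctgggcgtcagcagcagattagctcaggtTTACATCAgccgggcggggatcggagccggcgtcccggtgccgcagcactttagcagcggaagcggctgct
Chac1: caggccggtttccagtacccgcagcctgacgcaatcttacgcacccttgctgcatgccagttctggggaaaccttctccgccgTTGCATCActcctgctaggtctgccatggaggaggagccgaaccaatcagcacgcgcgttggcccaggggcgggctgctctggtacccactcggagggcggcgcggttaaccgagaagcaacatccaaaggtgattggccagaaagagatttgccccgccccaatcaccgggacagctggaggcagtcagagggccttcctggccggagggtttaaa
Pycr1: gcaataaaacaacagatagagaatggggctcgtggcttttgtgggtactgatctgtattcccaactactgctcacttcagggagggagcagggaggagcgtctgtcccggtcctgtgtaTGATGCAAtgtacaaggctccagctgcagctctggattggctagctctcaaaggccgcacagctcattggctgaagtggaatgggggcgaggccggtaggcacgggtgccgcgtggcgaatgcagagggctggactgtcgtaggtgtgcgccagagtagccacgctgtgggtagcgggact
Of 16 members with a promoter in the table, 4 held the element (25%), against 3.98% of all promoters.

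Of 27 genes of cholesterol and fatty acid synthesis, 0 were called higher and 0 lower, with log2 ratios from -0.47 to 0.38. Of 20 hypoxia and glycolysis genes, 0 were higher and 0 lower, with a median log2 ratio of -0.34. Total-count scaling called 2 of them higher, and pairwise TMM or DESeq2 scaling 1 lower, the glucose transporter Slc2a1, which stood at 46.9 CPM in stiff with A83-01 and 93 CPM in stiff, 1.98-fold lower (1.87 to 2.11). Of 18 genes of protein folding and secretion, 1 was lower, Creb3l1, a transcription factor of collagen-secreting cells, 3.29-fold lower (3.2 to 3.39) at 178 CPM in stiff with A83-01 and 584 CPM in stiff. That is 5.56% of the list, beside 4.48% of all genes. The 12 mitochondrially encoded genes had a median log2 ratio of 0.33, with 0 called higher and 0 lower. Among 11 retinoid and aldehyde dehydrogenase genes, 7 were higher and 2 lower. Crabp1, which binds retinoic acid, stood at 18.3 CPM in stiff with A83-01 and 0.206 CPM in stiff, and at 24.9 CPM in soft with A83-01 and 3.17 CPM in soft, 88.9-fold higher (40.6 to 243) on stiff. Aldh1a2, which makes retinoic acid, had 59 counts in stiff with A83-01 and 0 in stiff, at least 16-fold higher. Redox genes had 4 of 16 higher and 0 lower, among them extracellular superoxide dismutase, Sod3, 4.61-fold higher (4.35 to 4.88) at 219 CPM in stiff with A83-01 and 47.4 CPM in stiff. Of 17 immediate early genes, 0 were higher and 1 lower (5.88%, beside 4.48% of all genes), the nuclear receptor Nr4a2 at 7.69 CPM in stiff with A83-01 and 16 CPM in stiff. Total-count scaling called 2 higher and 0 lower. Of 9 prostaglandin genes, 2 were higher and 1 lower. The inducible cyclooxygenase Ptgs2 was 4.33-fold lower (2.9 to 6.63) and the prostaglandin E synthase Ptges was 5.94-fold higher (4.35 to 8.27).

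Growth factors and their binding proteins had 7 of 21 genes of the FGF, HGF, IGF and EGF families higher and 4 lower. Igfbp5, which binds insulin-like growth factors in the matrix, stood at 1225 CPM in stiff with A83-01 and 91.3 CPM in stiff, and at 337 CPM in soft with A83-01 and 245 CPM in soft. Stiff with A83-01 was the highest of the 4 libraries, 13.4-fold higher (12.9 to 14) on stiff. Fgf10, a mesenchymal growth factor for epithelium, was 7.11-fold higher (4.83 to 10.8) at 7.1 CPM in stiff with A83-01 and 0.998 CPM in stiff. Neuregulin 1, Nrg1, a ligand of ERBB receptors, stood at 0.337 CPM in stiff with A83-01 and 8.02 CPM in stiff, 23.8-fold lower (13.4 to 46.7), and the EGF receptor ligands Tgfa and Hbegf were 4.38-fold and 2.57-fold lower. Of 24 genes of VEGF, angiopoietin and PDGF signalling, 3 were higher and 2 lower, or 5 and 1 with total-count scaling. Vegfa, the main angiogenic factor, stood at 50.4 CPM in stiff with A83-01 and 159 CPM in stiff, and at 282 CPM in soft with A83-01 and 336 CPM in soft, 3.14-fold lower (2.98 to 3.32) on stiff, and placental growth factor, Pgf, was 2.14-fold higher (2.0 to 2.3). Angpt4, an angiopoietin, was 5.0-fold higher (4.18 to 6.02). Pdgfb, the endothelial factor that recruits pericytes, stood at 164 CPM in stiff with A83-01 and 174 CPM in stiff, 1.06-fold lower (1.02 to 1.1), a difference that turns with total-count scaling. Of 10 endothelin and angiotensin genes, 4 were higher and 0 lower. Adrenomedullin, Adm, a vasodilator peptide, stood at 153 CPM in stiff with A83-01 and 20.7 CPM in stiff, and at 250.4 CPM in soft with A83-01 and 121 CPM in soft, 7.36-fold higher (6.76 to 8.01) on stiff, the angiotensin receptor Agtr1a was 3.2-fold higher (2.93 to 3.5), and endothelin 1, Edn1, stood at 5.13 CPM in stiff with A83-01 and 8.15 CPM in stiff.

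Wnt pathway genes had 5 of 20 members lower and 2 higher, with a median log2 ratio of -0.34, or 3 lower and 5 higher with total-count scaling. Lef1, a nuclear effector of Wnt signals, stood at 0.757 CPM in stiff with A83-01 and 10.1 CPM in stiff, and at 2.18 CPM in soft with A83-01 and 2.87 CPM in soft, 13.4-fold lower (9.02 to 20.7) on stiff, the antagonist Sfrp4 was 7.63-fold lower (5.45 to 10.9) and the ligand Wnt4 was 3.3-fold higher (2.97 to 3.68) at 48.2 CPM in stiff with A83-01 and 14.6 CPM in stiff. Of 13 Notch pathway genes, 1, Notch3, was higher (7.69%, beside 7.53% of all genes). Another 2 were lower (15.4%, beside 4.48%), among them the ligand Dll1, 4.33-fold lower (3.19 to 5.95). Ion channels had 3 of 18 genes higher and 3 lower. The T-type calcium channel Cacna1g stood at 2.75 CPM in stiff with A83-01 and 22.5 CPM in stiff, and at 9.49 CPM in soft with A83-01 and 24.7 CPM in soft, 8.17-fold lower (6.6 to 10.2) on stiff, and the stretch-gated channel Piezo2 stood at 2.05 CPM in stiff with A83-01 and 11.3 CPM in stiff, and at 2.48 CPM in soft with A83-01 and 9.92 CPM in soft, 5.51-fold lower (4.26 to 7.2) on stiff. Of 13 cadherins and neural adhesion molecules, 3 were lower and 0 higher, and besides Ncam1 and Cdh11 these included P-cadherin, Cdh3, 3.07-fold lower (2.34 to 4.05).

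Ranked by the interval bound nearer to 1, the highest gene of the stiff pair was Sectm1b, a secreted and membrane protein. It stood at 207 CPM in stiff with A83-01 and 0.86 CPM in stiff, and at 345 CPM in soft with A83-01 and 97.7 CPM in soft, 241-fold higher (163 to 372) on stiff and 3.53-fold higher (3.4 to 3.67) on soft, so the stiff library without A83-01 was the low one. Kininogen, Kng1, the precursor of bradykinin, had 524 counts in stiff with A83-01 and 0 in stiff, at least 142-fold higher, but stood at 0.507 CPM in soft with A83-01 and 0.926 CPM in soft. The next places held Gdf10, Efemp1, the microvillar myosin Myo7b (158-fold higher, 61.3 to 579.9), the calcium-binding Pvalb (at least 56.8-fold higher) and Crabp1. RT1-CE16 had 184 counts in stiff with A83-01 and 0 in the other 3 libraries, but MHC class I genes of the rat include near-identical copies, which makes this count uncertain. Dhrs7l1, of the short-chain dehydrogenase family, likewise had 145 counts in stiff with A83-01 and 0 in the other 3. Enzymes of oxidation and reduction were among the 20 highest: aldehyde oxidase Aox3 (at least 44-fold higher), the cytochrome P450 Cyp2e1 (at least 34.3-fold) and the aldo-keto reductase Akr1c3 (at least 29.6-fold) had no counts in stiff. The plakin Ppl, a partner of intermediate filaments, stood at 14.2 CPM in stiff with A83-01 and 0.31 CPM in stiff, and at 87 CPM in soft with A83-01 and 12.6 CPM in soft, 45.8-fold higher (24 to 101) on stiff. Mlana, a melanosome protein, stood at 10.6 CPM in stiff with A83-01 and 0.241 CPM in stiff, and at 4.75 CPM in soft with A83-01 and 0.149 CPM in soft, 44.2-fold higher (21.2 to 111) on stiff. Both A83-01 libraries were high and both others near 0. The remaining genes of the 20 were C4b, C6 and Steap4, described above, Wfdc18 (at least 26.9-fold higher), Mmd2 (at least 24.5-fold higher) and the adiponectin relative C1qtnf9 (36.1-fold higher, 18.1 to 84.2).

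The lowest gene of the pair by the same ranking was Fbln2. C1qtnf3, also an adiponectin relative, stood at 0.337 CPM in stiff with A83-01 and 66.2 CPM in stiff, and at 0.0597 CPM in soft with A83-01 and 0.657 CPM in soft, 197-fold lower (112 to 381) on stiff. Prss35, a protease-like secreted protein, was 109.7-fold lower (42.5 to 405) at 0.112 CPM in stiff with A83-01 and 12.3 CPM in stiff, and Fibin, a secreted factor, stood at 0.533 CPM in stiff with A83-01 and 28.7 CPM in stiff, and at 0.388 CPM in soft with A83-01 and 8.75 CPM in soft, 53.9-fold lower (34.3 to 90.0) on stiff. The vitamin D receptor, Vdr, stood at 0.449 CPM in stiff with A83-01 and 21 CPM in stiff, and at 0.418 CPM in soft with A83-01 and 1.82 CPM in soft, 46.7-fold lower (28.5 to 82.2) on stiff. For these 4 genes the stiff library without A83-01 was the highest of the 4. The protease inhibitor A2m (at least 33.5-fold), the dynein chain Dync1i1 (at least 30.2-fold), the copine Cpne4 (at least 40.9-fold) and the cytokine Il10 (at least 19.6-fold) had 0 counts in stiff with A83-01 and were lower by the bounds given. Sertad4 was 23.3-fold lower (19.6 to 28), the cytochrome P450 Cyp2s1 was 30.5-fold lower (18.2 to 55), the transcription factor Wt1 was 40.0-fold lower (16.8 to 125) and the leucine-rich proteoglycan Podnl1 was 26-fold lower (15.8 to 46). Lrrc15, Sox9, Tnn, PCOLCE2, Bmpr1b, Col11a1 and Wisp1 completed the 20.

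The inhibitor was set beside its response on soft matrix, a pair that shares no library with the stiff pair. Over the same 13220 genes, 250 (1.89%) were higher and 294 (2.22%) lower on soft, and over the 13236 genes at the minimum there, 278 (2.10%) were higher and 308 (2.33%) lower. Of the 996 genes higher on stiff, 157 (15.8%) were also called higher on soft, which is 62.8% of the 250, and 9 were called lower. Of the 592 lower on stiff, 183 (30.9%) were also called lower on soft, which is 62.2% of the 294, and 10 were called higher. Without regard to the call, 787 (79.0%) of the genes higher on stiff and 507 (85.6%) of those lower had a soft ratio of the same sign. Across the 13220 genes, log2 ratios on stiff and soft had a Pearson correlation of 0.534 and a Spearman correlation of 0.414, given as a description, since genes are not independent replicates. Among the called genes, 1498 (94.3%) had a log2 ratio farther from 0 on stiff than on soft, but they were called on the stiff values, which favours that order.

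**Figure D5:**
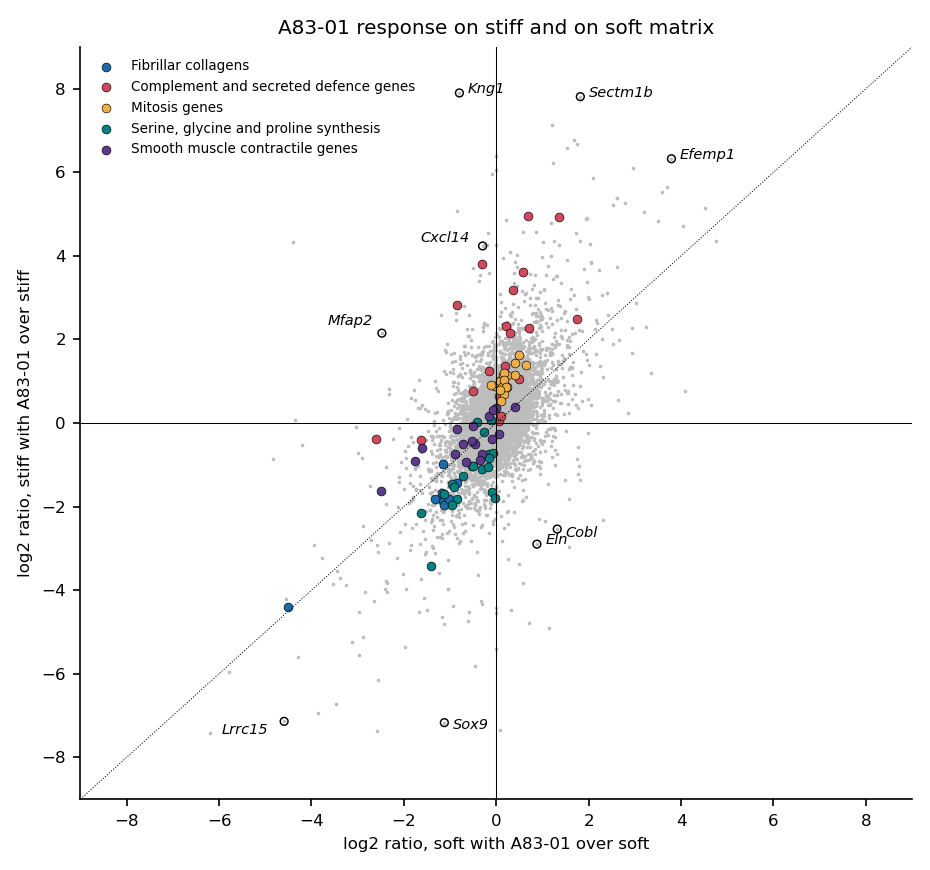
Log2 ratio with A83-01 over without it on stiff (vertical axis) against the same on soft (horizontal axis), 1 grey point per gene, 5 lists in colour and the diagonal dotted. Points spread farther along the stiff axis than the soft one, mitosis genes lie near 0 on soft, and fibrillar collagens lie below 0 on both.

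Differences between both responses were large for single genes and were not tested, since 4 libraries leave no residual degree of freedom for an interaction. The stiff ratio exceeded the soft ratio by at least 2-fold, with a counting interval off equality, for 795 genes, and was below it by as much for 410. Among genes with a symbol, the 5 widest gaps upward by the interval bound nearer to 0 were those of Sectm1b, Kng1, C4b, Cxcl14 and Ptn. Ptn encodes the heparin-binding growth factor pleiotrophin, and stood at 135 CPM in stiff with A83-01 and 6.98 CPM in stiff, and at 50.0 CPM in soft with A83-01 and 57.6 CPM in soft. It was 19.3-fold higher (16.8 to 22.3) on stiff and 1.15-fold lower (1.08 to 1.23) on soft, and the stiff library without A83-01 was the low one. Downward, besides Sox9, Eln and Cyp2s1, Cpne4 had 0 and 100 counts in stiff with A83-01 and in stiff, against 25 and 35 in soft with A83-01 and in soft. Cobl, an actin nucleator, stood at 1.54 CPM in stiff with A83-01 and 9.25 CPM in stiff, and at 2.33 CPM in soft with A83-01 and 0.896 CPM in soft, so that it was lower with A83-01 on stiff and higher on soft. List counts on soft cover only the list members that reached 1 CPM in either stiff library. By list, complement genes had 13 members higher on stiff and 2 on soft, where another 2 were lower. Chemokines had 8 and 1 higher, interferon-stimulated genes 10 and 2 and mitosis genes 14 and 0. Fibrillar collagens had 7 members lower on stiff and 7 on soft. Other lists had more members lower on soft: contractile genes had 1 lower on stiff and 3 on soft, Wnt genes 5 and 6, ion channels 3 and 4, integrin and focal adhesion genes 1 and 2, and resting fibroblast genes 1 and 3.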

How the data were processed

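Primary rat microvascular cells were profiled as 4 mRNA libraries, 1 per group, and groups were taken from the sample titles. Per the labels' protocols, oligo(dT)-selected RNA was fragmented, primed with random hexamers, PCR-amplified and sequenced from both ends (DNBSEQ-T7); no molecular identifiers or strand-marking step are mentioned, so overlapping antisense genes may not be separated. The deposited table holds raw read counts per gene, made by the authors, and a second deposited table holds the authors' FPKM, scaled for length and depth. Per the submitters' processing notes, HISAT2 and edgeR were used with Rnor_6.0 (versions, read counter and annotation: not given in the sources used here).

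From the counts, TMM factors over all 4 libraries (edgeR 4.0.16, R 4.3.3) gave 1.07 for stiff with A83-01, 0.876 for stiff, 1.04 for soft with A83-01 and 1.03 for soft. Log2 ratios used a prior count of 2; folds in the text are plain CPM ratios with a 95% Clopper-Pearson interval, which covers counting error only. A gene was called at 2-fold or more with an interval excluding 1. A fold against 0 counts used a floor of 3 counts in that library (0.0842 CPM in stiff with A83-01, 0.103 CPM in stiff). Pairs of 1 library a side were not tested. The additive quasi-likelihood test over 4 libraries had a biological coefficient of variation of 0.187, and DESeq2 1.42.0 and limma 3.58.1 were alternatives. That test gives no SE of its own. The SE printed with it is the size of the log2 change divided by the square root of its F statistic. Scripts were tested on simulated data.

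Members and the 54 gene lists were chosen with earlier results of these data known; of 876 list entries, 855 were in the table, and the others were not analysed here. List medians were the same to 2 decimals with genes at 0 counts set to their bound. Summed levels of a list include its genes below the minimum. Named genes were the 20 highest and 20 lowest by the nearer interval bound among genes with a symbol, up to 4 per direction and list, 27 anchors of the pathway, and the 5 widest differences from soft in each direction; others are said to be so where they appear, and some genes of these rules and tests are not reported here. Alternatives were total-count, pairwise TMM and DESeq2 scaling, filters, the prior count, FPKM with a pseudocount of 0.1, and stricter calls.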

Additional observations from a re-analysis of the deposited data

Results flagged for a closer look

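3 named genes were called at 2-fold in opposite directions on stiff and on soft matrix. Cobl, an actin nucleator, was lower with A83-01 on stiff (1.54 CPM in stiff with A83-01 and 9.25 CPM in stiff) and higher on soft (2.33 CPM in soft with A83-01 and 0.896 CPM in soft), a difference of stiff minus soft log2 ratios of -3.86. Sfrp1, a Wnt antagonist, was higher on stiff (134 CPM in stiff with A83-01 and 39.9 CPM in stiff) and lower on soft (136 CPM in soft with A83-01 and 291 CPM in soft), a difference of 2.85. Mfap2, a microfibril protein, was higher on stiff (3.42 CPM in stiff with A83-01 and 0.722 CPM in stiff) and lower on soft (0.746 CPM in soft with A83-01 and 4.42 CPM in soft), a difference of 4.63. With 1 library per group these differences were not tested. Counting intervals of the differences ran from -4.58 to -3.14 for Cobl, from 2.74 to 2.96 for Sfrp1 and from 3.75 to 5.50 for Mfap2.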

How the results depend on the processing

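Counts of called genes depended on the scaling and the thresholds. On stiff, 996 higher genes became 1592 with total-count scaling, 619 with a minimum of 5 CPM, 597 with the nearer interval bound at 2-fold, 244 at 4-fold, 1490 with FPKM and 1393 with no filter. The 592 lower genes became 372 with total-count scaling, 896 with no filter, 390 at 5 CPM, 350 with FPKM, 382 with the nearer bound and 165 at 4-fold. Total-count scaling moved the differences from soft to 1397 above and 252 below, because it adds 0.28 to each stiff log2 ratio. Pairwise TMM and DESeq2 scaling gave between 954 and 965 higher and 610 lower. In the additive test, the higher count of 0 became 219 (DESeq2), 565 (total counts) and 10 (no filter), and the lower count of 6 became 244 (DESeq2), 3 (limma-voom), 270 (total counts), 17 (no filter) and 0 (no matrix term); the cause was not tested. Lists with a median below 0 numbered 28, and 18 with total counts and with FPKM. Medians that changed sign, with total counts and with FPKM, were ligands (0.083, 0.15), SMADs (0.11, 0.12), proteoglycans (0.12, 0.12), integrins (0.0093, 0.023), fibroblast markers (0.0898, 0.10), interleukins (0.26, 0.27) and CDK inhibitors (0.13, 0.14). With no filter, proteoglycans (0.089) and skeletal muscle (0.18) changed sign, and at 5 CPM proteoglycans (0.089), Wnt genes (0.51), interleukins (0.0245) and cadherins (-0.10). Pairing by replicate was not possible because each group has 1 library and so no replicate numbers to pair. The additive test pairs libraries by matrix alone, and leaving out a library gives no test. With total-count scaling, further lists whose calls moved by over 1.5 times were resting fibroblast (0 lower), fibroblast (1 lower), receptors (1 lower), retinoid (1 lower), keratinocyte and skeletal muscle (0 lower), other collagens, YAP targets, Notch and cadherins (2 higher each), Schwann cell (4 higher), and mesenchymal, cartilage, mitochondrially encoded and smooth muscle regulator genes (1 higher each).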

Other observations

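Of the 9 genes called higher on stiff and lower on soft and the 10 called the other way, 4 more are given here, chosen after their values were seen. Midkine, Mdk, a heparin-binding growth factor related to pleiotrophin, stood at 8.56 CPM in stiff with A83-01 and 3.75 CPM in stiff, and at 11.6 CPM in soft with A83-01 and 24.6 CPM in soft. It was 2.28-fold higher (1.83 to 2.87) on stiff and 2.12-fold lower (1.87 to 2.39) on soft, and the stiff library without A83-01 was the lowest of the 4. Coagulation factor V, F5, stood at 1.35 CPM in stiff with A83-01 and 0.172 CPM in stiff, and at 18.2 CPM in soft with A83-01 and 41.8 CPM in soft, 7.83-fold higher (3.13 to 25.2) on stiff, where it had 5 counts without A83-01. Gja5, which encodes the arterial endothelial gap junction protein connexin 40, stood at 1.63 CPM in stiff with A83-01 and 4.3 CPM in stiff, and at 1.19 CPM in soft with A83-01 and 0.388 CPM in soft, 2.64-fold lower (1.92 to 3.67) on stiff and 3.07-fold higher (1.61 to 6.26) on soft. Slitrk6, a neuronal membrane protein, stood at 1.96 CPM in stiff with A83-01 and 10.1 CPM in stiff, and at 3.94 CPM in soft with A83-01 and 1.85 CPM in soft, 5.17-fold lower (3.97 to 6.81) on stiff and 2.13-fold higher (1.56 to 2.92) on soft.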
